A study of Arabidopsis thaliana with 48 samples.

Results

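The difference in leaf expression between *svp* mutant and wild-type plants under short days (SDs) was described from 6 of the 48 arrays of the series. The 3 arrays titled FLC/svp SD Leaf (svp) were set against the 3 titled FLC/SVP SD Leaf (WT), as the sample titles name them. The series holds 16 groups of 3 biological replicates, formed by 4 genotypes, 2 tissues and 2 day lengths. The genotypes were WT, svp, the single mutant *flc* and the double mutant *flc svp*, and the tissues were leaves and apices. The day lengths were SDs, and 2 weeks of SDs followed by 2 days under long days (LDs). The WT plants were the Columbia line with a functional *FRIGIDA* (*FRI*) introgression, and the svp plants carried the single mutant allele *svp-41* crossed into that background, so both groups held functional *FLC* and active *FRI*. Plants of both groups were grown on soil for 2 weeks under SDs, and leaves were harvested 8 h after dawn. The labels of both groups also mention 2 additional short days. RNA of each sample was hybridised to an AGRONOMICS1 tiling array, and each value is a log2 expression level per gene after the robust multi-array average (RMA), so a difference of 1 is a 2-fold change.

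*SVP* encodes a MADS-box transcription factor that represses flowering, and it acts with *FLC*, another MADS-box repressor that is kept at a high level by *FRI*. In leaves, both are known to hold back *FT*, which encodes the mobile flowering signal made in veins, and *SOC1*, a MADS-box activator of flowering. Under SDs these plants remain vegetative for a long time, and the comparison asked which leaf transcripts differ without functional *SVP* at that stage.

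Transcript of the mutated gene was still measured in the svp plants. *SVP* was at 8.26, 8.25 and 8.34 in WT leaves and at 7.32, 7.02 and 7.34 in svp leaves, a fall of 2.08-fold (adjusted p = 6.02e-08). The svp arrays were thus all below the WT arrays, but the transcript was not lost. *FLC* was at 8.81, 8.76 and 8.83 in WT and at 9.29, 9.11 and 9.0 in svp, a difference of 0.33 ± 0.14 (SE) that was not called (adjusted p = 0.213). The 14 photosynthesis markers were high in both groups, such as the small subunit gene *RBCS1A* at a mean of 13.08 in each. Their median level ranged from 12.75 to 12.85 over the WT arrays and from 12.72 to 12.82 over the svp arrays. None of the 12 shoot meristem markers was called, and their median level ranged from 3.89 to 3.98 in WT and from 3.77 to 4.08 in svp. The meristem genes *STM* and *KNAT1* were at 4.68 and 3.85 in WT leaves, against 7.40 and 6.96 in WT apices of SDs. None of the 7 markers of dividing cells and none of the 8 markers of vascular cells, guard cells and trichomes was called. Over all genes only 0.916% were called, so the absence of calls in marker lists this short says little about these cell types. In bulk leaves, fewer cells of a type and less RNA per cell cannot be told apart.

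Most genes called in svp leaves were higher than in WT. A gene counted as called where limma, fitted to all 48 arrays, gave a difference of more than 2-fold with an adjusted p below 0.01, and 284 of 31004 genes were called (0.916%). Of these, 246 rose (0.793% of all genes) and 38 fell (0.123%). Without the fold threshold the split was less uneven, with 463 higher and 276 lower (62.7% higher, against 86.6%). The median rise was 1.58 and the median fall -1.29, against a median of -0.01 over all genes. Each called gene had its 3 arrays of one group beyond the 3 of the other, which largely follows from the call on these same arrays. Over all genes, 8.42% had the 3 svp arrays above the 3 WT arrays and 9.01% had them below. The median level of the genes that rose was 5.74, 5.78 and 6.10 in the WT arrays and 7.50, 7.69 and 7.42 in the svp arrays. For the genes that fell it was 6.85, 7.12 and 6.83 in WT and 5.74, 5.60 and 5.66 in svp. These 2 sets were chosen on these arrays, so their medians describe them only. Of the 284 calls, 157 (55.3%) were also made whichever of the 6 arrays was left out, and with only the 12 arrays of SD leaves in the fit 157 genes were called.

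Among the flowering regulators the largest rise was in *SEP3*, a MADS-box gene best known for specifying floral organs. *SEP3* was at 3.40, 3.10 and 3.41 in WT leaves and at 5.68, 6.11 and 5.88 in svp leaves. The groups were far apart, with a rise of 6.0-fold (adjusted p = 2.73e-10). *SOC1* was at 5.02, 5.10 and 5.10 in WT and at 6.97, 6.52 and 6.93 in svp, a rise of 3.32-fold (adjusted p = 2.12e-11). It was the 1 gene called among 19 flowering activators (5.26%, against 0.793% of all genes higher). *FT* was at 2.93, 2.46 and 2.77 in WT and at 2.61, 2.55 and 2.65 in svp, low in both groups and with overlapping arrays. Its difference was -0.12 ± 0.16 (SE, adjusted p = 0.812), and its homologue *TSF* differed by 0.29 (adjusted p = 0.391). *LFY* and *AP1*, which specify floral meristems, differed by -0.10 and -0.29 and were not called. Of the 10 floral organ identity genes *SEP3* was the 1 called, and the other members lay between -0.22 and 0.35.

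The related repressors *TEM1* and *TEM2*, which encode RAV-type proteins that bind *FT*, changed in opposite directions. *TEM2* was at 5.55, 6.36 and 5.92 in WT and at 3.73, 3.96 and 4.12 in svp, a fall of 4.01-fold (adjusted p = 5.54e-04). *TEM1* was at 6.66, 7.99 and 7.22 in WT and at 8.60, 8.99 and 8.42 in svp, a rise of 2.60-fold (adjusted p = 0.00112). The WT arrays of *TEM1* were spread wider than the svp arrays, and its call was lost without WT replicate 1, without svp replicate 2 and with only the SD leaf arrays, with adjusted p up to 0.0331. The call of *TEM2* was lost without WT replicate 2 (adjusted p = 0.0101). With *SVP* itself these were the 3 calls among 19 flowering repressors, where 0.916% of all genes were called. *AGL16*, a MADS-box repressor whose product binds SVP and FLC, differed by 0.22 (adjusted p = 0.324). The repressor *TOE1*, an AP2-like gene, was below WT in every svp array but by less than 2-fold, at -0.48 (adjusted p = 0.0382). Of 27 clock and photoperiod genes 1 was called, against the same 0.916% of all genes. This was *CDF3*, whose relatives repress *CO*, and it was at 7.81, 7.65 and 7.79 in WT and at 7.05, 6.63 and 6.54 in svp. Its fall of 2.01-fold (adjusted p = 0.00746) was just past the fold threshold and dropped below a threshold in 6 of 12 alternative fits.

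**Figure D1:**
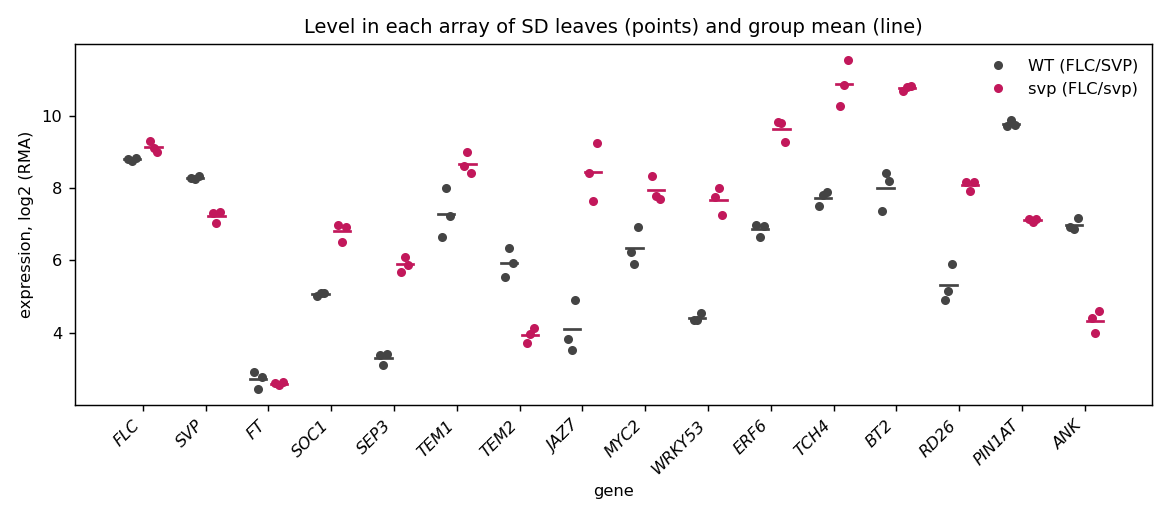
Expression level (log2, RMA) of 16 genes in each array of SD leaves, with WT in grey and svp in magenta; points are arrays and lines are group means. *SEP3*, *SOC1*, *TEM1* and the stress and hormone genes were higher in all 3 svp arrays, *SVP*, *TEM2*, *PIN1AT* and *ANK* were lower, and *FT* overlapped.

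The largest rise of all genes was in *JAZ7*, which encodes a repressor of jasmonate signalling. *JAZ7* was at 3.84, 3.53 and 4.91 in WT and at 8.42, 7.65 and 9.24 in svp, a rise of 20.3-fold (adjusted p = 3.37e-08). Jasmonate is a lipid-derived hormone made on wounding and mechanical stress, and the *JAZ* genes are themselves induced by the hormone and close a negative feedback loop. Of 12 *JAZ* genes measured, 7 rose (58.3%, against 0.793% of all genes) and none fell, with a median change of 1.18. *JAZ6* rose by 1.96, *JAZ9* by 1.90 and *JAZ5* by 1.87 on the log2 scale. WT replicate 3 stood nearest to the svp arrays for these genes, as for *JAZ5* at 5.26, 4.90 and 6.75 in WT against 7.82, 7.39 and 7.29 in svp. The median over the *JAZ* genes still ranged from 6.12 to 6.79 in WT and from 7.48 to 8.07 in svp. The call of *JAZ5* was lost in 5 of 12 alternative fits. *JAZ1* and *JAZ3*, also among the 7 that rose, kept their calls in only 2 and 3 of the 6 fits that left out 1 array.

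Genes for making and perceiving jasmonate moved less uniformly. Of 16 genes of jasmonate synthesis and turnover 3 rose (18.8%, against 0.793% of all genes), with a median over the list of 0.10. *LOX4*, a lipoxygenase at the start of the pathway, was at 4.01, 3.95 and 4.37 in WT and at 5.91, 5.97 and 5.92 in svp, a rise of 3.54-fold (adjusted p = 7.53e-07). *OPR3*, the peroxisomal reductase of the pathway, rose 2.26-fold and *CYP94C1*, which oxidises the active hormone, rose 2.39-fold. Their calls were lost in 3 and 5 of 12 alternative fits, with adjusted p up to 0.0325 and 0.0857. The jasmonate-responsive factor gene *ORA47* rose 4.92-fold (adjusted p = 1.56e-04), and *MYC2*, the main transcription factor of the pathway, rose 2.98-fold (adjusted p = 7.58e-04). *MYC2* was at 6.24, 5.90 and 6.93 in WT and at 8.32, 7.78 and 7.70 in svp, and lost its call in 3 of 12 alternative fits. No other of the 12 signalling and response genes was called, and the median over that list was -0.24. The late marker genes of the response did not rise, with *VSP2*, a storage protein gene, at a difference of -0.27 (adjusted p = 0.821) and the defensin gene *PDF1.2* at -1.37 (adjusted p = 0.571).

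Several transcription factor genes that respond early to stress also rose. Of 72 *WRKY* genes 7 rose (9.72%, against 0.793% of all genes) and none fell, with a median over the family of 0.01. *WRKY53*, a regulator of leaf senescence and defence, was at 4.35, 4.36 and 4.56 in WT and at 7.75, 8.0 and 7.26 in svp, a rise of 9.50-fold (adjusted p = 1.86e-07). *WRKY40* was at 4.26, 4.24 and 4.20 in WT and at 7.70, 7.96 and 6.78 in svp, a rise of 9.48-fold (adjusted p = 7.94e-05). Its relative *WRKY18*, which acts with it in defence, rose 5.62-fold, and *WRKY33*, needed for camalexin defence, rose 5.05-fold. For all 4 genes the svp arrays were spread wider than the WT arrays.

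Of 11 ethylene response factor genes 5 rose (45.5%, against 0.793% of all genes), and the median change of the list was 1.92. *ERF6* was at 6.99, 6.64 and 6.95 in WT and at 9.81, 9.80 and 9.27 in svp, a rise of 6.82-fold (adjusted p = 4.05e-04). *ERF13* rose 7.32-fold, *ERF11*, a repressor of ethylene synthesis, rose 5.45-fold, and *ERF5* rose 5.38-fold. *ERF5* lost its call in 6 of 12 alternative fits, with adjusted p up to 0.0307. Of 10 early stress zinc finger and MYB genes 4 rose (40.0%, against 0.793% of all genes), all of them MYB genes. *MYB77*, which modulates auxin response, rose 5.45-fold, *MYB73* 4.52-fold, *MYB44* 3.06-fold and *MYB51* 2.20-fold. *MYB51* lost its call in 7 of 12 alternative fits, among them each fit that left out 1 of the 6 arrays, with adjusted p up to 0.14. The zinc finger gene *ZAT10* was higher by 2.51 in the mean, but its spread left it uncalled (adjusted p = 0.0311).

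Genes named for their induction by touch were higher in svp. *TCH4*, a xyloglucan endotransglucosylase that remodels the cell wall, was at 7.50, 7.82 and 7.89 in WT and at 10.28, 10.83 and 11.52 in svp, a rise of 8.83-fold (adjusted p = 9.79e-05). The calmodulin-like gene *TCH3* was at 8.44, 8.72 and 8.63 in WT and at 10.97, 11.49 and 11.19 in svp, a rise of 6.16-fold (adjusted p = 4.65e-06). *TCH2*, also calmodulin-like, rose 2.73-fold. The other touch gene, the calmodulin gene *CAM2*, was higher in every svp array but by 0.56, under the fold threshold. With *CML38*, which rose 5.07-fold, 3 of 14 calmodulin-like genes rose (21.4%, against 0.793% of all genes). Of 33 xyloglucan endotransglucosylases 2 rose (6.06%, against 0.793% of all genes), *TCH4* and *XTH18*. The calls of *CML38* and *XTH18* were lost in 2 and 3 of 12 alternative fits.

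Genes that respond to darkness and low sugar formed another group with several rises. *BT2*, a BTB and TAZ domain gene that responds to sugar and nitrogen, was at 7.37, 8.42 and 8.19 in WT and at 10.68, 10.78 and 10.81 in svp, a rise of 6.79-fold (adjusted p = 1.80e-08). Its relative *BT5* was at 5.16, 5.38 and 5.73 in WT and at 8.41, 8.48 and 8.31 in svp, a rise of 7.87-fold (adjusted p = 1.76e-08). *DIN10*, a raffinose synthase-like gene induced in the dark, rose 4.66-fold. *TPS8* and *TPS11*, of the trehalose phosphate synthase family, rose 3.92-fold and 2.63-fold. Including *BT2*, 5 of the 15 dark and low sugar genes rose (33.3%, against 0.793% of all genes) and none fell, with a median of 0.48. The fifth, *bZIP1*, had the same values on every array as the overlapping locus AT5G49448, so these were 1 measurement. The call of *bZIP1* was kept in only 1 of the 6 fits that left out 1 array. *DIN10* and *SIP2*, which rose 2.01-fold, were the 2 called of 8 raffinose genes. The call of *SIP2* was lost in 5 of 12 alternative fits, among them renewed quantile normalisation, with adjusted p up to 0.0552.

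The 15 largest rises also included *RD26* and *CYP707A3*, which belong to none of the lists. *RD26*, a NAC factor gene of dehydration and senescence, was at 4.91, 5.17 and 5.91 in WT and at 8.15, 7.91 and 8.15 in svp, a rise of 6.70-fold (adjusted p = 5.97e-09). *CYP707A3*, which inactivates abscisic acid, was at 3.27, 3.08 and 2.82 in WT and at 5.43, 6.47 and 6.08 in svp, a rise of 7.67-fold (adjusted p = 4.68e-07). Both genes were well separated between the groups. The remaining 5 of the 15 largest rises were in genes without a symbol, AT2G13547 (11.9-fold), AT1G05575 (9.40-fold), AT4G32480 (7.71-fold), AT1G66090 (6.84-fold) and AT2G32200 (6.33-fold).

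**Figure D2:**
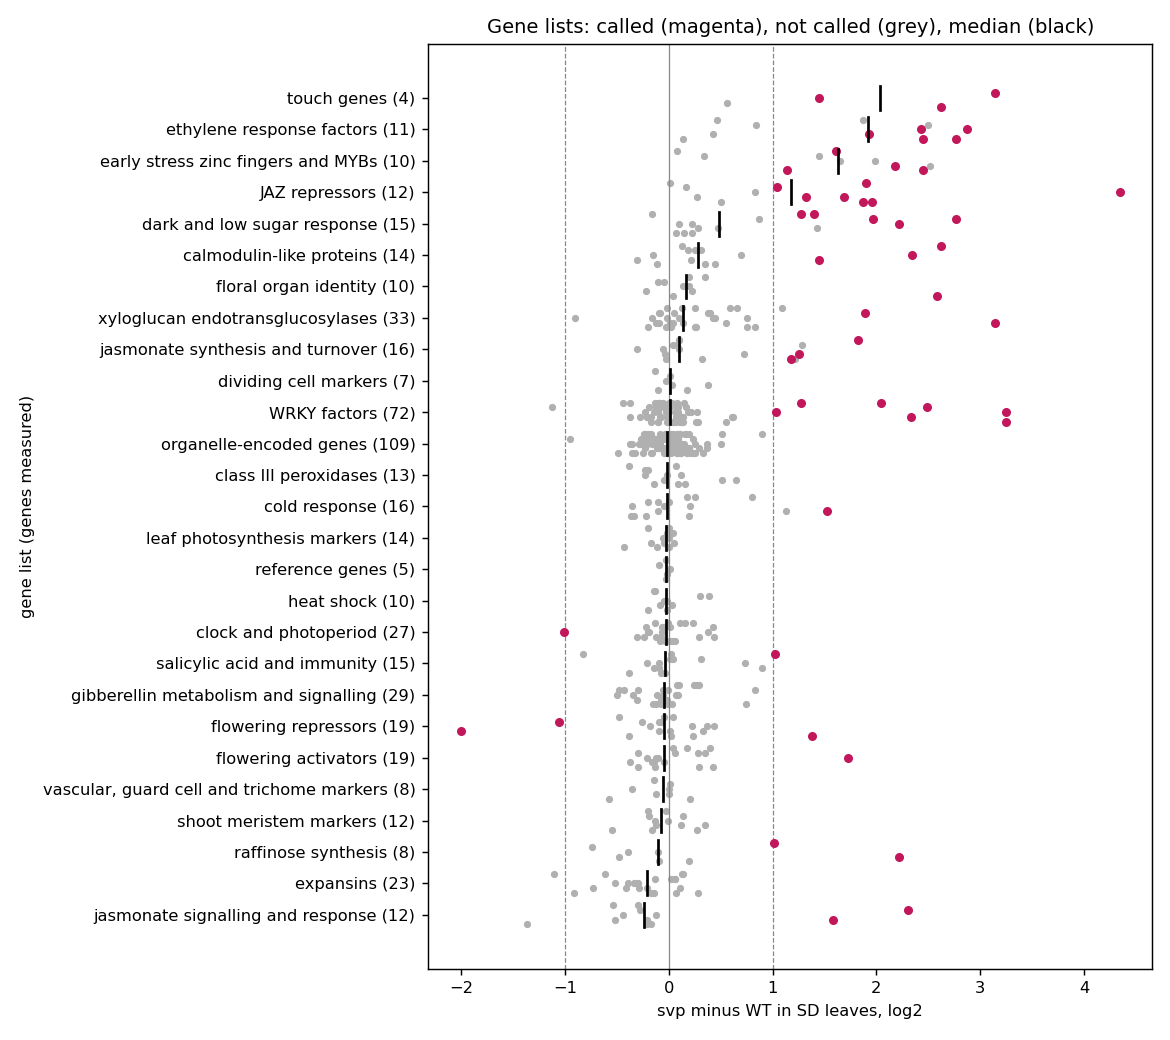
Change of each member of the 27 gene lists in svp minus WT of SD leaves (log2), with called genes in magenta, other genes in grey and the list median as a black line; dashed lines mark a 2-fold change. The touch, ethylene response factor, early stress and *JAZ* lists had medians above 1, while the lists of clock, gibberellin, photosynthesis and meristem genes had medians between -0.08 and -0.03.

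Other hormone, stress and growth lists held few or no calls, where 0.793% of all genes rose and 0.123% fell. None of 29 gibberellin genes was called. The nearest were *GA3OX1*, a late step of gibberellin synthesis, at 0.83 (adjusted p = 0.00215) and the DELLA repressor gene *RGL3* at 0.75 (adjusted p = 0.0012), both under 2-fold. Of 15 salicylic acid and immunity genes 1 rose, *CBP60G*, a regulator of salicylic acid synthesis, by 1.02 on the log2 scale, a call lost in 3 of 12 alternative fits, and the marker *PR1* differed by -0.04 (adjusted p = 0.975). Of 16 cold response genes 1 rose, *DDF1*, which encodes a DREB-type factor, by 1.52, and *COR15A*, a gene of cold acclimation, differed by -0.10 (adjusted p = 0.951). None of 10 heat shock, 13 class III peroxidase, 109 organelle-encoded and 5 reference genes was called. None of 23 expansin genes, whose products loosen cell walls, was called. Of these, 9 lay below WT in every svp array and none above (9.01% and 8.42% of all genes), with *EXPA1* at -1.10 (adjusted p = 0.0793) and *EXPA11* at -0.73 (adjusted p = 0.00747).

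The steepest fall was in *PIN1AT*, which encodes a peptidyl-prolyl isomerase known to act on flowering regulators. It was at 9.71, 9.87 and 9.74 in WT and at 7.14, 7.07 and 7.15 in svp, a fall of 6.28-fold (adjusted p = 3.33e-21) with arrays of each group close together. *ANK*, also called *BDA1*, an ankyrin repeat gene of immunity, was at 6.92, 6.85 and 7.18 in WT and at 4.42, 3.99 and 4.60 in svp, a fall of 6.26-fold (adjusted p = 3.20e-11). *LURP1*, which is induced by a downy mildew pathogen, was at 6.76, 7.47 and 7.29 in WT and at 5.35, 4.49 and 4.65 in svp, a fall of 5.07-fold (adjusted p = 5.02e-06). *CNGC11*, a cyclic nucleotide-gated channel gene of defence, fell 3.35-fold (adjusted p = 5.25e-07). *PLA2A*, a patatin-like lipase gene, fell 2.93-fold (adjusted p = 6.35e-05). *DOT1*, named for its vein pattern mutant, fell 3.86-fold and *QQS*, which affects starch content, fell 2.98-fold. *HOL3*, of a small methyltransferase family, fell 2.93-fold and *PCR1*, of the cadmium resistance family, 3.13-fold. The remaining 2 of the 12 largest falls were AT1G71000 (3.63-fold) and AT1G78170 (2.98-fold). The call of AT1G71000 was lost in 4 and that of *PCR1* in 3 of 12 alternative fits.

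The calls lay on all 5 chromosomes. Chromosome 2, which holds *SVP* and 16.5% of the genes, held 42 of the 246 rises (17.1%) and 12 of the 38 falls (31.6%). Within 50 loci on each side of *SVP*, 3 of 101 genes were called (2.97%, against 0.916% of all genes). These were *SVP* itself, *NAI1*, a bHLH gene for endoplasmic reticulum bodies, and AT2G22880. The share thus includes the mutated gene on which the window was centred, and it was smaller in wider windows. *NAI1* rose 2.38-fold (adjusted p = 0.00294) and AT2G22880 rose 5.70-fold (adjusted p = 0.00247). Both calls were lost in 4 or more of 12 alternative fits.

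The same comparison in plants moved from SDs to LDs for 2 days shared no array with that of SDs. The labels do not settle whether both sets of plants had the same age, so age and day length cannot be told apart. There, svp minus WT gave 57 calls in leaves (0.184%), of which 52 were also called in SD leaves with the same sign. These were 18.3% of the calls of SD leaves and 91.2% of those of LD leaves. Over all genes 52.2% were above 0 in LD leaves, with a median change of 0.008. Of the 246 genes that rose in SD leaves 243 were above 0 in LD leaves, with a median of 0.72. Of the 38 that fell all were below 0, with a median of -0.99. Since the genes were chosen for a large change in SD leaves, a smaller change elsewhere is partly set by that choice. The difference of the svp effects between SD and LD leaves was therefore tested for each gene, and 1 of 31004 was called (0.00323%), with 1703 at an unadjusted p under 0.05. This gene, AT3G18777, annotated as a transcribed pseudogene, was higher by 0.93 in svp of SD leaves and differed by -0.08 in LD leaves. Its group means in leaves were low, at 3.06 and 3.99 in WT and svp of SDs and at 3.03 and 2.95 in those of LDs, and its call was lost in 6 of 12 fits with 1 array left out. *SOC1* and *SEP3* rose in LD leaves too, by 1.69 and 2.00, and *TEM2* fell there by 3.00. *JAZ7* differed by 1.38 in LD leaves (adjusted p = 0.131) and by 4.34 in SD leaves, and this contrast of the 2 effects was 2.96 ± 0.64 (SE, adjusted p = 0.067). None of the 12 *JAZ* genes was called in LD leaves, where their median change was 0.21. Over all 31004 genes the changes in SD and LD leaves had a Pearson correlation of 0.48 and a Spearman correlation of 0.33, given as a description across genes of one tissue.

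In apices the overlap was smaller. Under SDs 67 genes were called (0.216%), of which 53 were lower in svp, and 16 of them were among the calls of SD leaves (5.63% of the leaf calls and 23.9% of the apex calls). In apices of LDs 44 genes were called (0.142%), and 10 were shared (3.52% and 22.7%). All shared calls had the same sign. Of the 284 calls of SD leaves, 226 were made in none of the 3 other settings. The rises had a median of 0.37 in SD apices and 0.18 in LD apices, and the falls -0.64 and -0.57.

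**Figure D3:**
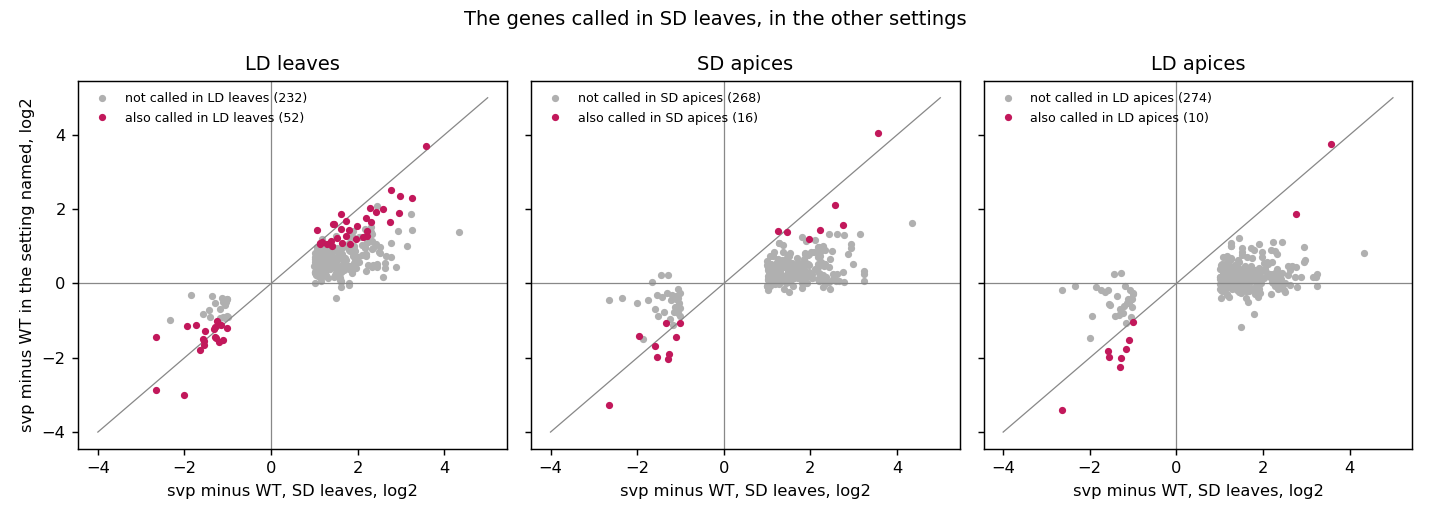
Change in svp minus WT (log2) of the 284 genes called in SD leaves (x axis) against the change in leaves of LDs and in apices of either day length (y axes), with genes also called there in magenta; the diagonal marks equal change. Most rises lay below the diagonal, with medians of 0.72, 0.37 and 0.18 in the 3 settings.

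The svp effect differed between leaves and apices of SDs for 34 genes (0.110%), of which 30 had the more positive effect in leaves. *SEP3* rose by 2.59 in leaves and differed by 0.07 in apices, a difference of 2.52 ± 0.30 (SE, adjusted p = 2.48e-05). *SOC1* rose by 1.73 in leaves and differed by 0.50 in apices (adjusted p of the difference = 6.18e-04). The level of *SOC1* in WT was 5.07 in leaves and 4.44 in apices of SDs. *WRKY53*, *RD26*, *BT5*, *LOX4* and AT1G66090 likewise rose in leaves and differed by no more than 0.54 in apices. *ANK* fell in leaves, where WT held a mean of 6.98, and was at 4.29 in WT apices. AT4G38840, an auxin-inducible *SAUR* family gene, fell by 1.29 in leaves and differed by 0.23 in apices. *JAZ7* was not called for this difference, at 2.72 ± 0.64 (SE, adjusted p = 0.0439). The count of 34 was 11 without svp replicate 2 of SD leaves, the lowest among the arrays left out.

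A set of 8 genes was called in all 4 settings with the same sign. AT2G13547 was at 5.94, 4.68 and 5.13 in WT and at 8.67, 8.74 and 9.04 in svp of SD leaves, and its rise was 3.57 there and 3.71 in LD leaves, with 4.04 in apices of SDs and 3.76 in those of LDs. *BT2* rose by 2.76, 2.53, 1.58 and 1.87 in the same order. The other 6 fell in every setting. *PIN1AT* changed by -2.65, -2.86, -3.28 and -3.42, *HOL3* by -1.55, -1.55, -1.99 and -1.97, and *QQS* by -1.58, -1.5, -1.68 and -1.81. AT1G55675, AT3G51000 and AT5G66250 fell by between 1.10 and 1.30 in SD leaves and by between 1.17 and 2.26 in the other settings. No difference of effect between SD leaves and either LD leaves or SD apices was called for these 8 genes.

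The mutants *flc* (allele *flc-3*) and *flc svp*, which also carried active *FRI*, were compared with the same 3 WT arrays of SD leaves. Their changes share that reference with the changes in svp and are given side by side only. Of the 246 rises in svp leaves, 198 (80.5%) were also called higher in *flc* and 126 (51.2%) in *flc svp*, with medians of 1.70 and 1.06. Over all 31004 genes, 458 were called higher in *flc* and 373 in *flc svp*. Of the 38 falls, 12 (31.6%) were also called lower in *flc* and 28 (73.7%) in *flc svp*. Over all 31004 genes, 95 were called lower in *flc* and 169 in *flc svp*. *JAZ7* changed by 4.34 in svp plants, by 4.20 in *flc* and by 3.43 in the double mutant. *TCH4* changed by 3.14, 4.19 and 2.58, and *BT2* by 2.76, 2.82 and 1.92. *SOC1* changed by 1.73, 1.84 and 2.63. For these genes the change was positive in all 3 mutants. *SEP3* changed by 2.59 in svp plants, by 0.33 in *flc* and by 3.13 in the double mutant, and *PIN1AT* by -2.65, -0.05 and -3.01. *ORA47* rose in svp, by 2.30, and fell in *flc svp*, by 2.23, and *QQS* fell in svp and in *flc*, by 1.58 and 2.39, and rose in *flc svp*, by 1.38.

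**Figure D4:**
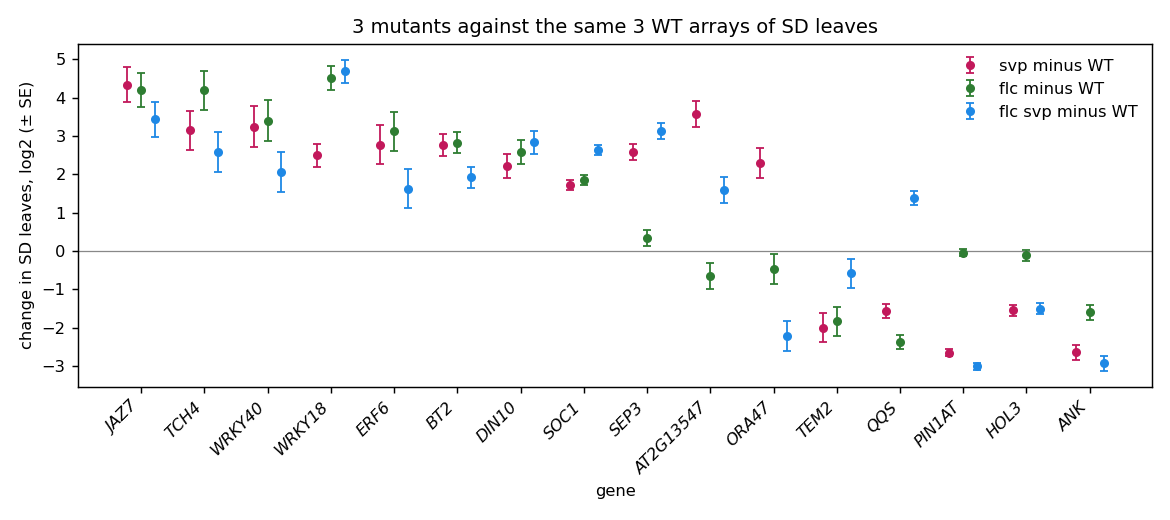
Change in SD leaves (log2, mean difference ± SE from the limma fit) of 16 genes in the 3 mutant genotypes (svp, *flc* and their double mutant), each minus the same 3 WT arrays. *JAZ7*, *TCH4* and *BT2* were above 0 in all 3 mutants, and *SEP3*, *PIN1AT* and *HOL3* changed in the 2 genotypes that carry the *svp* mutation.

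A direct contrast of svp with *flc* leaves does not use the WT arrays. It gave 128 calls (0.413%), with 30 genes higher and 98 lower in svp than in *flc*. The split depended on the fit, with 20 higher and 24 lower when only the 12 arrays of SD leaves were used, and 239 higher and 345 lower without the fold threshold. *FLC* itself was higher by 3.57 in svp, as its transcript was at a mean of 5.57 in *flc*. *SEP3* was higher in svp by 2.26 ± 0.21 (SE, adjusted p = 5.05e-09) and AT2G13547 by 4.23 (adjusted p = 1.32e-10), whereas *PIN1AT* was lower by 2.61 (adjusted p = 5.96e-21). *ORA47* was higher by 2.77 and *DREB1A*, a cold response factor gene, by 2.42. Against WT, *DREB1A* differed by -0.34 in svp (adjusted p = 0.751) and by -2.755 in *flc* (adjusted p = 6.09e-07). *JAZ7*, *BT2* and *SOC1* differed by 0.14, -0.06 and -0.11 between svp and *flc* and were not called (adjusted p from 0.777 to 0.958). None of the 12 *JAZ* genes was called, and the median of the list was -0.10. *WRKY18*, which rose in svp, was higher still in *flc*, with a difference of -2.02 (adjusted p = 5.01e-05), and *XTH18* and *SIP2* differed by -1.56 and -1.19. *PLA2A* fell in svp and rose in *flc*, with a difference of -2.84. The glutathione transferase genes *GSTF6* and *GSTF7* differed by -2.65 and -2.50, and the transporter gene AT3G23550 by -2.77. Against WT these genes were not called in svp, at -1.46, -0.48 and 0.18 in that order (adjusted p from 0.126 to 0.894). In *flc* they were at 1.19, 2.02 and 2.95.

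**Figure D5:**
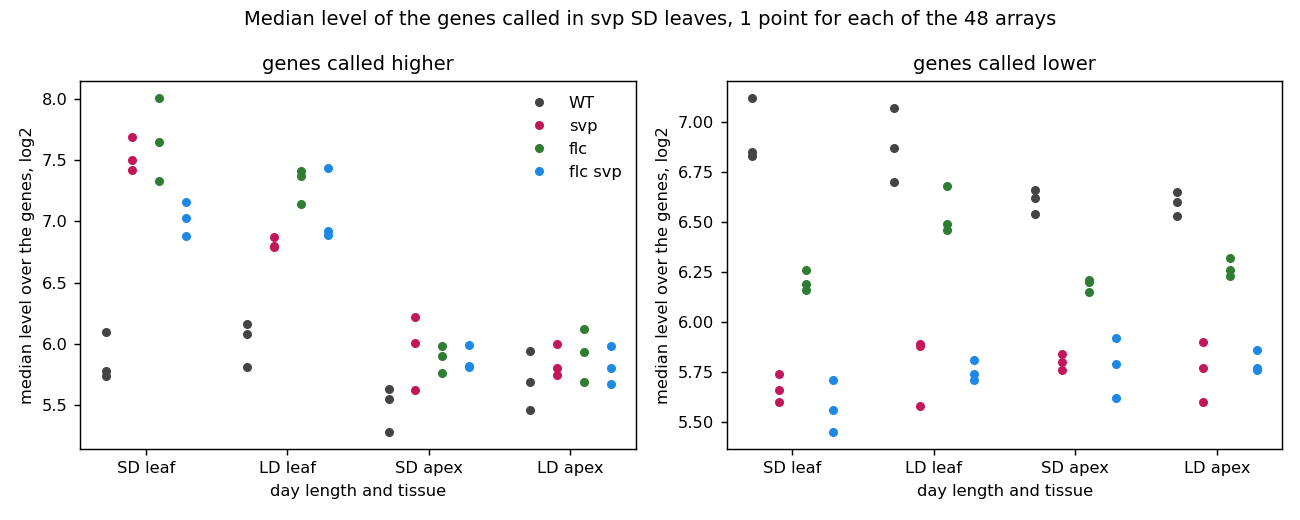
Median level (log2) over the 246 genes that rose (left) and the 38 that fell (right) in svp of SD leaves, for each of the 48 arrays by day length, tissue and genotype. Rises reached medians of 7.42 to 7.69 in svp of SD leaves and 6.79 to 6.87 in svp of LD leaves, against 5.62 to 6.22 in svp of SD apices. In *flc* the medians of the same genes were 7.33 to 8.01 in SD leaves and 7.14 to 7.41 in LD leaves. The median of the falls was between 5.58 and 5.90 in all 12 svp arrays.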

How the data were processed

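Values were the log2 expression levels that the authors deposited for 31004 loci on 48 AGRONOMICS1 arrays, made with RMA (background correction, quantile normalisation and probe summarisation), which can compress large changes. Annotation release and RMA version are not given in the sources used here, and 0 columns were left out. Symbols came from RefSeq genes (TAIR10.1, 98.3% of loci matched) and the array's loci were kept as names otherwise.

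limma 3.58.1 in R 4.3.3 fitted a mean for each of the 16 groups with replicate number as a random block (consensus correlation 0.0336), as in the study's methods, followed by eBayes and Benjamini-Hochberg adjustment over all genes. The methods used Storey's q-value, which was run as an alternative. The fit was tested on simulated data. The 3 arrays per group limit the precision, and array medians ranged from 4.27 to 4.38.

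The comparison, the 27 gene lists and the gene rule were chosen with earlier results of these data known. Named were the 15 largest rises and 12 largest falls, up to 4 called members of each list, 8 regulators, genes called in all 4 settings, the 5 largest of each direction in other contrasts and called genes within 50 loci of *SVP*; further list members were named after their values were seen. Of 549 list entries 543 were on the array.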

Additional observations from a re-analysis of the deposited data

Results flagged for a closer look

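For 12 genes named in the text the effect of *svp* in SD leaves differed from its effect in another setting by more than 2-fold in a test of the difference itself (limma, adjusted p under 0.01). Between SD and LD leaves this held for AT3G18777, with a difference of 1.01 ± 0.14 (SE, adjusted p = 7.22e-04). This gene was not called with only the arrays compared, under the filter on low genes, or in 6 of 12 fits that left out 1 array. Between leaves and apices of SDs the difference was positive for *WRKY53* at 3.17, AT1G66090 at 2.74, *SEP3* at 2.52, *BT5* at 2.44, *RD26* at 2.43, *LOX4* at 1.80 and *SOC1* at 1.23. It was negative for *ANK* at -2.21, AT4G38840 at -1.51, AT3G26486 at -1.46 and AT1G19690 at -1.04. AT3G26486, annotated as a pseudogene, was not called in SD leaves and was low in every group.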

How the results depend on the processing

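The 284 calls of SD leaves were 271 without the replicate block. Same-numbered svp and WT arrays correlated at -0.02, 0.01 and 0.09 in their deviations from the group mean. Differently numbered arrays ranged from -0.17 to 0.15. The numbers thus showed no pairing of the samples, but 3 arrays per group cannot settle this. In the other 6 contrasts the fit without the block moved no count by over 1.5 times. Between 280 and 287 genes were called in SD leaves with a variance trend, Storey's q-value, a filter on low genes, centring or renewed quantile normalisation, and scaling moved the median of all genes to between -0.02 and -0.01. With only the 12 arrays of SD leaves 157 genes were called, 152 of them among the 284, and svp minus *flc* gave 44 (20 higher and 24 lower). With only the arrays compared, LD leaves gave 18, SD apices 10, LD apices 19 and the leaf against apex difference 21. Without the fold threshold the counts were 739 (463 higher and 276 lower) and 208 in leaves of SDs and LDs, 216 and 159 in apices of SDs and LDs, and 584 for svp minus *flc*. The filter on low genes removed the 1 call of the day length difference, leaving 0.

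Leaving out 1 array at a time, with the block correlation kept, gave 210 to 289 calls in leaves of SDs and 44 to 77 in those of LDs, 39 to 67 in apices of SDs and 38 to 50 in those of LDs, and 89 to 160 for svp minus *flc*. The lowest count of SD apices came without WT replicate 2. The day length difference gave 0 to 2 calls, with 0 without WT replicate 1 or svp replicate 2 of SD leaves, WT replicate 2 or svp replicate 3 of LD leaves, and 2 without WT replicate 3 of SD leaves. The leaf against apex difference gave 11 to 38. It was 16 without WT replicate 1 or 2 and 11 without svp replicate 2 of SD leaves, and in SD apices it was 14 without svp replicate 1, 20 without svp replicate 3, 19 without WT replicate 2 and 15 without WT replicate 3. Of 65 named genes called in SD leaves 37 were called in each of 12 alternative fits and 28 lost the call in 1 or more, *SVP* among them without svp replicate 2, where its fall was 0.95. *WRKY40*, *WRKY33*, *ERF13*, *ORA47*, *JAZ9*, *PLA2A*, AT1G05575, AT1G66090, AT2G32200 and AT1G78170 lost it only with the 12 arrays of SD leaves. None of the 74 named genes changed sign.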
